A study of Homo sapiens with 66 samples.

Results

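The cytosolic ribosomal protein genes were described in 11 acute myeloid leukaemia (AML) cell lines, untreated and after etoposide. Members were the protein-coding genes whose symbol is RPL or RPS followed by a digit, together with RPSA, RPLP0, RPLP1 and RPLP2. RPS6K kinases and symbols ending like a pseudogene were left out. The rule matched 90 of 57992 gene identifiers. Of these, 77 encode the standard proteins of the cytosolic ribosome, 46 in the large (60S) and 31 in the small (40S) subunit. RPL22L1, RPL39L and RPS27L, 3 expressed paralogues, were kept apart from the 77. The others were 7 further paralogues (RPL3L, RPL7L1, RPL10L, RPL26L1, RPL36AL, RPS4Y1 and RPS4Y2) and 3 read-through genes (RPL17-C18orf32, RPL36A-HNRNPH2 and RPS10-NUDT3). Levels of the Y-linked paralogues are not given. RPS19BP1, a nucleolar protein that is no ribosomal protein, fell under the rule on endings and was not a member.

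Etoposide is a poison of topoisomerase II: it traps the enzyme on cut DNA, and the breaks activate the DNA damage response. The established AML lines were THP-1, MOLM-13, NB-4, OCI-AML3, HL-60, MV-4-11, F-36P, NOMO-1, KASUMI-1, OCI-AML2 and MONO-MAC-6. They were left untreated or given etoposide for 24 h, each line at its own IC50 (the inhibitory concentration the study set for it). The dose thus differed between lines. Culture conditions differed as well: the amount of serum was not the same for all lines. F-36P also received granulocyte-macrophage colony stimulating factor, and MONO-MAC-6 received insulin, pyruvate and non-essential amino acids. Each of the 22 groups held 3 libraries, 66 in all, and cells of 3 wells were pooled before the RNA of a library was isolated. The methods of the study describe its replicates in general as biological, while the labels do not say how the libraries of a group were kept apart, so p-values measure the spread between these libraries. The study set its etoposide-treated OCI-AML2 libraries aside on read quality; their values are given here apart from the other 10 lines.

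A ribosome holds 1 copy of nearly every ribosomal protein, and the genes are among the most strongly transcribed of a growing cell. Their messenger RNAs share a 5′ terminal oligopyrimidine (TOP) tract, a run of C and T from the first transcribed base, through which mTOR signalling and LARP1 set their translation. Ribosomal proteins that are not built into a subunit can bind MDM2, the ligase that degrades p53, which links ribosome assembly to p53. Haploinsufficiency of single members causes Diamond-Blackfan anaemia, and loss of RPS14 contributes to the 5q- syndrome, so the dosage of these genes is of interest in blood cells.

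The TOP tract was read from RefSeq start sites (assembly GRCh38.p14). Of the 77 standard genes 62 were listed, and 46 of them (74.2%) opened at a listed start with C followed by at least 4 pyrimidines, against 6.35% of 15251 protein-coding genes. The search covered the first transcribed base and the 4 after it, on the transcribed strand only. RPL23, RPL23A, RPL30, RPL37, RPL5, RPL7, RPL8, RPS15A, RPS2 and RPS20 were among the genes not in the table. Below are the starts of genes to which the results return, with 10 bases before and 20 after the start, 5′ to 3′. Capitals mark the pyrimidine run from the first transcribed base. RPL39L was not in the table.
RPS27, chr1:153990752-153990781, + strand: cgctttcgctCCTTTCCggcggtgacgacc
RPS27L, chr15:63157458-63157487, - strand: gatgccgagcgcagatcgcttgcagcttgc
RPL22, chr1:6199576-6199605, - strand: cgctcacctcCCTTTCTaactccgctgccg
RPL22L1, chr3:170870176-170870205, - strand: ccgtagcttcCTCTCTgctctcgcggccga
RPL39, chrX:119791611-119791640, - strand: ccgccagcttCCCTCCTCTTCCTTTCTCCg
RPS26, chr12:56041908-56041937, + strand: acataacctcgattttcttccgccatccgg
RPS27L opened with g and had no pyrimidine run, whereas RPS27, its partner, had a run of 7. RPL22 and RPL22L1 both opened with a run, of 7 and 6 bases. The listed start of RPS26 opened with g. A start that holds the letters is a description of sequence and says nothing of translation.

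The libraries held 17997404 to 24101670 reads assigned to genes (median 20241014), so that counting error is small for most members, and replicate libraries differed by more than sampling noise in every group (the lowest chi-square per degree of freedom was 2.12). SPI1, CD33, CSF3R, PTPRC and LYZ, genes of myeloid and other blood cells, were at 1 CPM (a read count scaled to a library of 1e6 reads) or more in all 11 untreated lines. CEBPA and MPO reached this in 10, with F-36P below it at 0.552 and 0.977 CPM. Of the erythroid genes, HBA1 and HBG1 passed 1 CPM in F-36P alone, and KLF1 passed it there and in MONO-MAC-6 and KASUMI-1. Among lymphoid genes CD3D reached 156 CPM in NOMO-1, and of the epithelial and stromal genes EPCAM reached 81.9 CPM in KASUMI-1. These are single genes in clonal lines, and their part in the results below was not tested. In bulk RNA, fewer cells of a type and less RNA per cell cannot be told apart.

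Ribosomal protein genes took a large and line-dependent part of the transcriptome. In untreated cells the 77 genes held from 5.13% ± 0.203 (SD, n = 3) of reads in MONO-MAC-6 to 11.9% ± 0.614 in KASUMI-1, and the median over all 66 libraries was 7.71%. After etoposide the share was higher in MOLM-13 and NB-4, lower in MONO-MAC-6, and overlapped between groups in the other 8 lines. In MOLM-13 the 3 untreated libraries lay between 8.45% and 8.77% and the 3 treated ones between 10.4% and 10.7%. In NB-4 they lay between 6.89% and 7.95% untreated and between 8.49% and 9.31% treated. In MONO-MAC-6 the share lay between 4.90% and 5.29% untreated and between 4.27% and 4.43% treated. As ratios of group means these are 1.23, 1.19 and 0.848. With reads of nuclear protein-coding genes as the denominator the same 3 lines, and no other, had separate groups, with ratios of 1.26, 1.20 and 0.855. A share depends on all reads of a library. Scaled by library size alone, the median log2 fold change in NB-4 was 0.214 for all genes and 0.225 for the 77. In MOLM-13 these medians were -0.018 and 0.281, and in MONO-MAC-6 0.13 and -0.227. In NB-4 the rise was thus near that of the median gene. The share of mitochondrial reads was higher after etoposide, with separate groups, in 7 lines. Its mean went from 5.47% to 7.21% in MOLM-13 and from 3.53% to 4.18% in MONO-MAC-6, where the ribosomal protein share moved in opposite directions, and its part in the share was not tested. Pseudogenes of these genes, 1603 in number, added less than the spread between replicates (median share 7.75% with them).

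The 60S genes together gave 1.34 to 1.74 times as many reads as the 40S genes in untreated lines. After etoposide this ratio was lower, with no overlap between the groups, in 9 of 11 lines, for instance 1.54 ± 0.00509 (n = 3) untreated against 1.48 ± 0.0024 treated in MONO-MAC-6. In MOLM-13 and OCI-AML2 the groups overlapped. The shift was small, with ratios of treated to untreated between 0.963 in MONO-MAC-6 and 0.999 in OCI-AML2, and it was not put to a test.

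Gene by gene, the direction of the response depended on the line. Each line was fitted across all its genes with edgeR's quasi-likelihood test, and a gene was called at a Benjamini-Hochberg adjusted p (FDR) below 0.05. All 77 genes were tested in all lines. Over the 10 lines other than OCI-AML2, 222 of 770 gene and line pairs were lower after etoposide and 78 were higher. Of all genes tested, 15.0% (HL-60) to 30.5% (MONO-MAC-6) were lower in a line and 16.1% (THP-1) to 35.0% (F-36P) higher. The 222 against 78 is thus to be read beside these shares, line by line as below. All 77 genes were called in at least 1 line, and 54 were called in both directions in different lines. The same counts were not made over all genes, so these 2 counts are not a result about the family. Changes were small: with the study's additional limit of a fold change above 2, 3 pairs remained, all lower, against a background over all genes of 3.96% of pairs lower and 11.1% higher. Those 3 pairs were RPL17 in F-36P and in KASUMI-1 and RPS26 in F-36P.

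MONO-MAC-6 held the broadest decrease. There 68 of 77 genes were lower, where 30.5% of all genes tested were lower, and no member was higher (31.8% of all genes). The median log2 fold change of the 77 was -0.34, and that of all genes 0.01. RPL36A (-0.80), RPL35 (-0.75) and RPS26 (-0.69) were at the low end. RPL35, a protein at the exit of the peptide tunnel, was at 653, 707 and 683 CPM in untreated cells and at 409, 412 and 395 CPM after etoposide, so that the groups lay far apart (log2 fold change -0.75 ± 0.0421 SE, adjusted p = 3.96e-08). RPL5, a part of the 5S ribonucleoprotein that binds MDM2, was at 1187, 1172 and 1185 CPM untreated and at 799, 779 and 781 CPM treated (-0.59 ± 0.0344, adjusted p = 5.48e-08).

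MOLM-13 moved the other way. There 59 of 77 genes were higher (28.1% of all genes tested) and 1 was lower (28.1%), with a median log2 fold change of 0.30 against 0.00 for all genes. RPL12 had the highest value, 0.61. RPL11, the partner of RPL5 in the 5S particle, was at 1478, 1474 and 1482 CPM untreated and at 1847, 1704 and 1889 CPM treated (0.29 ± 0.0586, adjusted p = 0.00174). The member that was lower in MOLM-13 was RPS26, at 134, 138 and 138 CPM untreated and 94.7, 102 and 104 CPM treated (-0.44 ± 0.0663, adjusted p = 0.000293).

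F-36P, NOMO-1 and MV-4-11 had decreases of intermediate breadth. In F-36P 39 genes were lower (25.0% of all genes) and none higher (35.0%), with a median of -0.31 where all genes had 0.09. In MV-4-11 43 were lower (30.4%) and 1 was higher (33.5%), with a median of -0.16. In NOMO-1 33 were lower (23.9%) and 8 higher (28.8%). The counts of F-36P and MV-4-11 rested on the scaling: by library size alone, F-36P had 6 lower and 1 higher, and MV-4-11 19 lower and 15 higher. NOMO-1 had the widest spread of log2 fold changes among the 77 genes (SD over genes 0.281, against 0.068 to 0.215 in the other lines), with RPS27 highest at 0.46.

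In the remaining lines few members were called. NB-4 had 11 lower (28.7%) and 9 higher (31.0%) around a median of 0.02. HL-60 had 8 lower (15.0%) and none higher (17.5%), THP-1 8 lower (16.0%) and none higher (16.1%), OCI-AML3 7 lower (17.7%) and 1 higher (22.4%), and KASUMI-1 4 lower (28.6%) and none higher (31.5%). In OCI-AML2 edgeR called no member, where 0.0% of all genes were lower and 0.0221% higher. At an unadjusted p below 0.05 OCI-AML2 had 3 members lower and 1 higher, and neither the exact test nor DESeq2 called one. For the lines with no member higher, the unadjusted count was 1 in HL-60 and 0 in F-36P, KASUMI-1, MONO-MAC-6 and THP-1, and both DESeq2 and the exact test called 1 in HL-60 and 0 in the other 4. A share of members at or below the share of all genes, as in NB-4, HL-60, THP-1, OCI-AML3 and KASUMI-1, is not a result about these genes. Few calls do not mean that the genes stayed level. In THP-1 the median log2 fold change of the 77 was -0.21 (all genes -0.03), with 72 of them below 0. The median was -0.16 in MV-4-11, with 62 genes below 0, and -0.17 in NOMO-1, with 52.

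**Figure D1:**
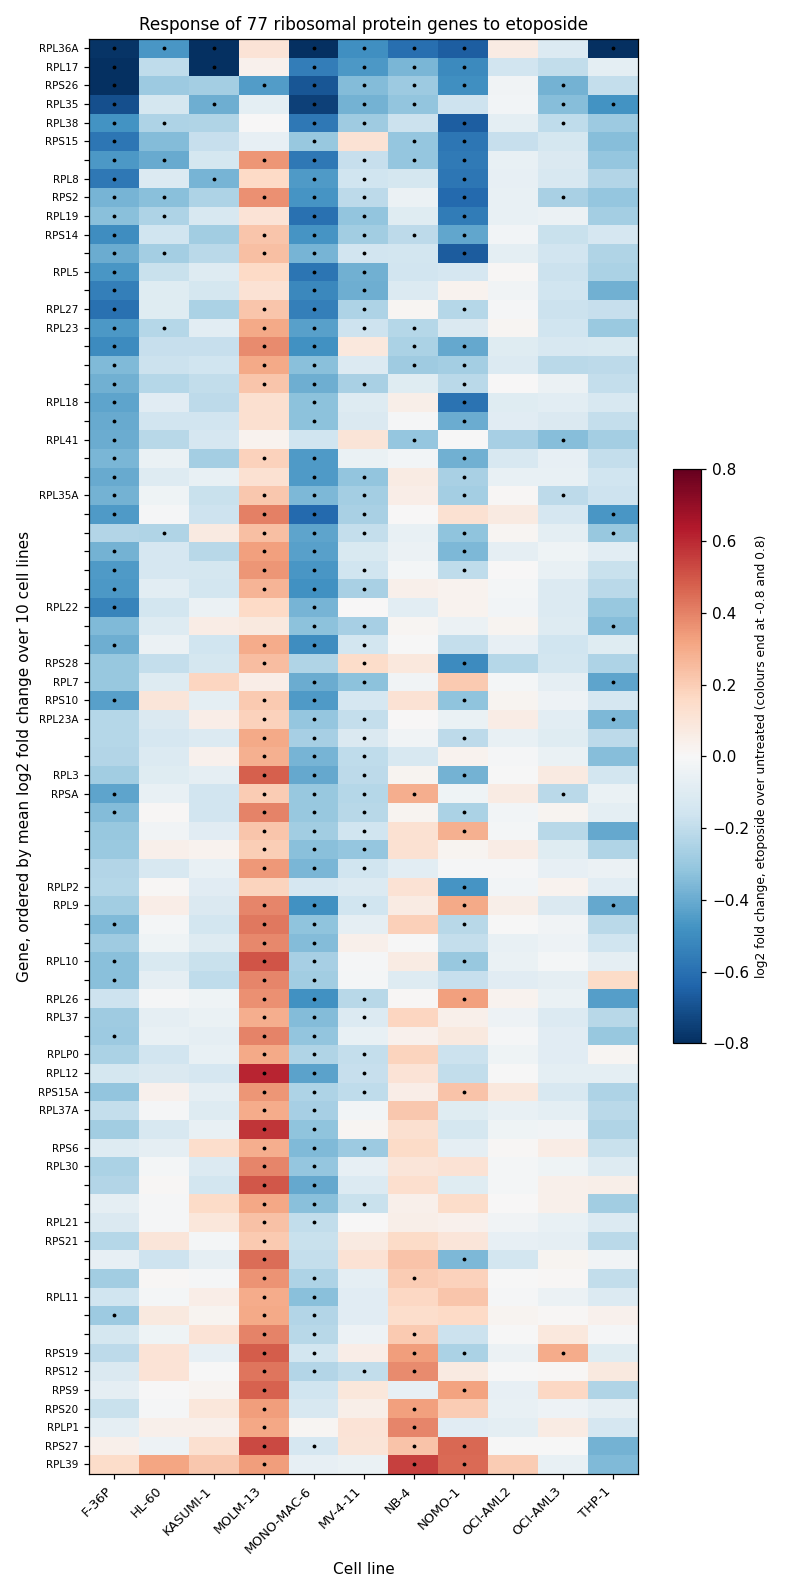
Log2 fold change (etoposide over untreated, colour) of each of the 77 standard ribosomal protein genes (vertical axis, ordered by the mean over 10 lines) in each of 11 cell lines (horizontal axis). Dots mark an adjusted p below 0.05. MOLM-13 is mostly above 0 (59 genes called higher), MONO-MAC-6 mostly below (68 called lower), and RPL36A, RPL17 and RPS26 are at the low end of the order. Names on the axis are given for genes named in the text.

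Single libraries weighed on the smaller counts. Without 1 library the counts of lower members ran from 65 to 76 in MONO-MAC-6, from 39 to 49 in MV-4-11 and from 22 to 39 in NOMO-1, and that of higher members from 47 to 65 in MOLM-13. In F-36P it fell from 39 to 19 without untreated replicate 2, to 22 without etoposide replicate 3 and to 25 without etoposide replicate 1, and rose to 62 without untreated replicate 3. In KASUMI-1 it went from 4 to 47 without etoposide replicate 2, and to 2 without untreated replicate 2 or 3 or etoposide replicate 1 or 3. In THP-1 it went from 8 to 26 without etoposide replicate 2 and to 1 without etoposide replicate 1 or untreated replicate 2. In HL-60 it went from 8 to 13 without etoposide replicate 2 and to 2 or 3 without untreated replicate 2 or 3 or etoposide replicate 1 or 3. In OCI-AML3 it went from 7 to 18 without etoposide replicate 3, to 4 without replicate 1 of either group, to 3 without etoposide replicate 2 and to 2 without untreated replicate 2. In NB-4 the 11 lower became 6 without etoposide replicate 1 and 7 without untreated replicate 2, and the 9 higher became 5 without untreated replicate 1 or etoposide replicate 2 or 3. In NOMO-1 the 8 higher became 4 without any untreated replicate or etoposide replicate 2 or 3. In MV-4-11 the single gene higher, RPS28, was called by neither DESeq2 nor the exact test, and the count became 9 without etoposide replicate 1, 2 without untreated replicate 1 or 3, and 0 without untreated replicate 2 or etoposide replicate 2. With the replicate number as a block, NB-4, whose same-numbered libraries deviated together, had 20 higher instead of 9. In MV-4-11, where they did so among abundant genes but not over all genes tested, the block gave 6 higher instead of 1.

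The scale to which the counts were put also mattered. Scaled by library size alone, in place of the trimmed mean of M values (TMM), the pairs were 127 lower and 140 higher instead of 222 and 78. By line, NB-4 went from 11 lower and 9 higher to 1 and 43, KASUMI-1 from 4 and 0 to 2 and 9, and HL-60 from 8 and 0 to 2 and 2. OCI-AML3 had 4 lower instead of 7 and THP-1 5 instead of 8. MONO-MAC-6 had 64 lower, MOLM-13 58 higher, and NOMO-1 23 lower and 11 higher. With TMM and without MOLM-13 the pairs higher were 19. Scaling by library size also took the median log2 fold change of all genes from 0.09 to 0.34 in F-36P, from 0.01 to 0.21 in NB-4, from 0.03 to 0.20 in KASUMI-1, from 0.01 to 0.14 in MV-4-11, from 0.01 to 0.13 in MONO-MAC-6 and from -0.01 to 0.10 in HL-60. The median of the 77 genes turned from -0.10 to 0.00 in HL-60 and from -0.11 to 0.06 in KASUMI-1. Relative to the median of all genes in the same fit, the 77 stood at -0.40 in F-36P, -0.36 in MONO-MAC-6, -0.21 in NOMO-1, -0.18 in THP-1, -0.17 in MV-4-11 and 0.30 in MOLM-13. They stood at -0.13 in KASUMI-1, -0.09 in HL-60 and OCI-AML3, -0.02 in OCI-AML2 and 0.01 in NB-4. Another scaling moves all genes of a line nearly alike and so can hardly change this difference. A filter can: with genes of at least 5 CPM only, it was -0.17 in F-36P, -0.12 in MV-4-11, -0.04 in KASUMI-1, -0.33 in MONO-MAC-6 and 0.36 in MOLM-13. TMM factors taken from genes other than the ribosomal protein genes left 221 pairs lower and 78 higher.

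With the 10 lines as replicates of the treatment, limma called 20 of the 77 genes lower and none higher, where 26.5% of all genes were lower and 18.7% higher. The median over the 77 of the mean log2 fold change was -0.11, and over all genes -0.03. The share of members called lower is thus close to that of all genes and is not a result about these genes. At an unadjusted p below 0.05 there were 27 in either direction. With library size alone 5 were lower and 3 higher. The count of lower genes was 33 without MOLM-13 and 12 to 19 without any other single line. It was 13 without F-36P, HL-60 or THP-1 and 12 without MONO-MAC-6. The response differed between the 10 lines, by an F test of the interaction in edgeR, for 73 of the 77 genes (74.5% of all genes). RPS15, RPLP1, RPS21 and RPL41 were the 4 that did not pass.

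The genes with the lowest mean response included several with few reads. RPL36A, a 60S protein, had a mean log2 fold change of -0.54 ± 0.102 (SE over 10 lines, adjusted p = 0.00118, limma) and was lower in 8 of 10 lines. In THP-1 it was at 21.5, 22.8 and 19.2 CPM untreated and at 13.4, 9.66 and 12.8 CPM treated (-0.82 ± 0.153, edgeR's adjusted p = 0.000536), with no overlap. RPL17, which lines the exit of the peptide tunnel, had a mean of -0.50 ± 0.142 (adjusted p = 0.012) and was lower in 6 of 10 lines. In F-36P it was at 29.9, 31.2 and 30.7 CPM untreated and at 11.3, 12.9 and 10.8 CPM treated (-1.39 ± 0.127, adjusted p = 1.37e-05). In KASUMI-1 it went from 19.7, 21.1 and 20.7 CPM to 7.78, 8.96 and 8.24 CPM (-1.30 ± 0.104, adjusted p = 5.96e-06), although only 4 members were called lower in that line.

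Both genes share exons with a read-through gene, and a read that overlaps 2 genes is not counted to either. In the gencode 44 annotation 96.9% of the bases of the canonical RPL17 transcript, 43.8% of RPL36A and 84.0% of RPS10 lie in exons of their read-through genes, which had 0 reads here. The libraries held 156 to 584 reads on RPL17, 174 to 764 on RPL36A and 297 to 1138 on RPS10. The counts of these 3 genes thus come from a part of their transcripts, and the annotation the authors counted with (gencode 25) was not used here.

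RPS26 had more reads than RPL36A and RPL17. It encodes a protein at the mRNA exit channel of the 40S subunit and is mutated in Diamond-Blackfan anaemia. Its log2 fold change was below 0 in 10 of 10 lines, from -1.01 in F-36P to -0.19 in THP-1, and it was called in 7. Its mean was -0.44 ± 0.0779 (adjusted p = 0.000803, limma). In F-36P it was at 177, 186 and 152 CPM untreated and at 81.9, 91.6 and 82.0 CPM treated, so that treated cells held less than the lowest untreated library (-1.01 ± 0.119, adjusted p = 5.9e-05). In NOMO-1 it went from 95.6, 95.3 and 111 CPM to 71.1, 70.5 and 73.1 CPM (-0.49 ± 0.0873, adjusted p = 0.000522). In OCI-AML2 it was at 150 ± 0.749 CPM untreated and 147 ± 5.03 CPM treated (n = 3), with overlap. RPS26 has many processed pseudogenes, and reads that align to several places are not counted.

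RPL35, with 405 to 1205 CPM as group means, was below 0 in 10 of 10 lines and called lower in 7, with a mean of -0.37 ± 0.0728 (adjusted p = 0.00145). RPL38, a 60S protein at the subunit's surface, was also below 0 in all 10 lines and was called lower in 6, with a mean of -0.32 ± 0.0672 (adjusted p = 0.00251). RPL7L1, a paralogue of RPL7 that acts in ribosome assembly, was lower in 8 of 10 lines, with values from -0.92 in KASUMI-1 to -0.14 in THP-1. RPL36AL, a paralogue of RPL36A that lacks the read-through partner, was lower in 7 of 10 lines, from -0.59 in THP-1 to 0.11 in KASUMI-1. RPL26L1 was lower in 3 lines and higher in 1.

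At the other end, no gene was called higher over the lines. RPL39 (mean 0.15 ± 0.0886, adjusted p = 0.19), RPS27 (0.09), RPLP1 (0.07), RPS20 (0.06) and RPS12 and RPS9 (both 0.05) had the highest means among the 77. RPL39, a very short protein that lines the exit tunnel, was called higher in 3 lines and in NB-4 went from 45.6, 55.7 and 55.8 CPM to 73.9, 74.4 and 81.1 CPM (0.55 ± 0.0994, adjusted p = 0.000224). RPS27 was higher in 3 lines and lower in MONO-MAC-6. In MOLM-13 it went from 596, 603 and 580 CPM to 819, 866 and 883 CPM (0.53 ± 0.0584, adjusted p = 4.13e-05). RPLP1 and RPS20 were each higher in MOLM-13 and NB-4, and called lower in no line.

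The transcripts of 11 proteins that bind MDM2 were counted apart. All 11 were lower in MONO-MAC-6 (30.5% of all genes), 9 were higher in MOLM-13 (28.1%), 8 were lower in MV-4-11 (30.4%) and 5 were lower in F-36P (25.0%). In NOMO-1 3 were lower (23.9%) and 3 higher (28.8%), with a median log2 fold change of 0.02 where the 77 genes had -0.17. In NB-4 3 were lower (28.7%) and 1 higher (31.0%), in HL-60 1 was lower (15.0%), and in KASUMI-1, OCI-AML3, THP-1 and OCI-AML2 none was called. No test compared these genes with the other members. RPL5 was lower in 3 lines and had a mean of -0.23 (adjusted p = 0.02). RPL11 was lower in MONO-MAC-6 (-0.34) and higher in MOLM-13 (0.29) and, at 0.22 and at the edge of the threshold (adjusted p = 0.05 after rounding), in NOMO-1. RPL23 was lower in 5 lines, from -0.46 in F-36P to -0.17 in MV-4-11, and higher in MOLM-13 (0.30). RPL5 and RPL11, which act as 1 particle, thus had different values in the same lines: in NOMO-1 -0.13 against 0.22, and in MV-4-11 -0.38 against -0.09. The difference between the 2 genes was not tested.

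Among 19 genes of Diamond-Blackfan anaemia, 18 were lower in MONO-MAC-6 (30.5% of all genes), 12 were lower and 1 higher in MV-4-11 (30.4% and 33.5%), and 10 were lower in F-36P (25.0%). In MOLM-13 14 were higher and 1 lower (28.1% each way). In NOMO-1 8 were lower and 5 higher (23.9% and 28.8%), in NB-4 2 and 2 (28.7% and 31.0%), and in OCI-AML3 3 and 1 (17.7% and 22.4%). THP-1 had 2 lower (16.0%), HL-60 1 (15.0%), KASUMI-1 1 (28.6%) and OCI-AML2 none. RPS19, the gene most often mutated in the disease, was called in both directions: higher in MOLM-13 (0.49), NB-4 (0.33) and OCI-AML3 (0.30) and lower in NOMO-1 (-0.26) and MONO-MAC-6 (-0.15). In OCI-AML3 RPS19 went from 924, 966 and 888 CPM to 1044, 1160 and 1208 CPM (adjusted p = 0.0101), the single member called higher in that line. RPS14, the gene of the 5q- syndrome, was lower in 5 lines, from -0.50 in F-36P to -0.21 in NB-4, and higher in MOLM-13 (0.22). RPL35A was lower in 5 lines and higher in MOLM-13 (0.22). RPL10, which is mutated in T-cell leukaemia, was at 0.50 in MOLM-13 and at -0.26 to -0.33 in the 3 lines where it was lower. In the stalk, which recruits elongation factors, RPLP0 was lower in MONO-MAC-6 and MV-4-11 and higher in MOLM-13, and RPLP2 was lower in NOMO-1 alone (-0.47).

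The rule leaves out genes whose products belong to the ribosome but whose symbols differ. Of these, FAU encodes a ribosomal protein fused to a ubiquitin-like sequence, and RACK1 is a scaffold on the 40S head. In MONO-MAC-6 both were lower, FAU at -0.37 and RACK1 at -0.47. In MOLM-13 FAU (0.19) and RACK1 (0.12) did not pass the test. RACK1 was lower in 5 lines, with -0.59 in F-36P.

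Other genes of ribosome production did not follow the ribosomal protein genes in every line. A list of 20 genes that carry ribosomal proteins or finish the subunits (such as the escort TSR2, the 40S factors LTV1 and NOB1 and the 60S factors NMD3 and SBDS) was counted in the same fits. In MOLM-13 19 of 20 were lower (28.1% of all genes) and none was higher, beside 59 of 77 ribosomal protein genes higher. The median of the list was -0.58 there, against 0.30 for the 77 genes. In KASUMI-1 16 of 20 were lower (28.6%), with a median of -1.02, where the 77 genes had -0.11. In F-36P 15 of 20 were lower (25.0%, median -0.99), in MV-4-11 16 (30.4%) and in OCI-AML3 11 (17.7%), with none higher in these lines. NB-4 had 15 lower and 1 higher (28.7% and 31.0%), MONO-MAC-6 14 and 1 (30.5% and 31.8%), and NOMO-1 12 and 2 (23.9% and 28.8%). In HL-60 3 were lower and 3 higher (15.0% and 17.5%), in THP-1 2 and 1 (16.0% and 16.1%), and in OCI-AML2 none was called. Mitochondrial ribosomal protein genes, 77 of 78 tested in 9 lines and 78 in OCI-AML2 and OCI-AML3, were lower for 60 genes in F-36P (none higher), 57 in MOLM-13 (1 higher), 52 in MONO-MAC-6 (3 higher), 51 in KASUMI-1 (1 higher), 50 in MV-4-11 (7 higher) and 41 in NB-4 (5 higher). The count was 32 in NOMO-1 (13 higher), 27 in OCI-AML3 (none higher), 13 in HL-60 (5 higher), 7 in THP-1 (3 higher) and 0 in OCI-AML2, beside the shares of all genes given above for each line. The median in MOLM-13 was -0.39. Of genes with TOP messenger RNAs outside the family, 19 were tested (such as the elongation factors EEF1A1 and EEF2, and NPM1, TPT1 and GAS5). Of these, 14 were lower in MONO-MAC-6 (30.5%) and in MV-4-11 (30.4%) and 11 in F-36P (25.0%), with none higher. NB-4 had 9 lower and 3 higher (28.7% and 31.0%), HL-60 8 and 2 (15.0% and 17.5%), and NOMO-1 6 and 4 (23.9% and 28.8%). THP-1 had 5 and 1 (16.0% and 16.1%), OCI-AML3 5 and 0 (17.7% and 22.4%), and KASUMI-1 4 and 1 (28.6% and 31.5%). In MOLM-13 9 were higher (28.1%) and 2 lower (28.1%), and in OCI-AML2 none was called. The medians of all genes in these lines were between -0.03 and 0.09.

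Across the 77 genes, the response was set beside base composition. The GC content of the coding sequence ran from 42.5% for RPL39 to 63.0%, with a median of 51.6%. In NOMO-1 the Pearson correlation of log2 fold change with GC content over the 77 genes was -0.56, in OCI-AML2 -0.54, in MV-4-11 0.39 and in the other 8 lines -0.27 to 0.21. In NOMO-1 the 38 genes below the median GC had a median log2 fold change of 0.03 and the 39 others -0.31. RPS2 (GC 61.8%) and RPL8 (61.0%) were lower in NOMO-1, at -0.62 and -0.58, and RPL39 (42.5%) and RPL9 (43.6%) were higher. Over all genes with a coding sequence the correlation was -0.10 in NOMO-1, -0.15 in OCI-AML2, 0.26 in MV-4-11 and 0.01 to 0.25 in the other 8 lines. In the 3 lines named the sign for the members was thus that of all genes. The signs were opposite in HL-60 (-0.266 for the members, 0.135 for all genes) and F-36P (-0.08 and 0.128). They were also opposite in KASUMI-1 (-0.199 and 0.008) and NB-4 (-0.099 and 0.15). These are correlations over genes of the same libraries, which share depth and preparation, and genes are not independent replicates.

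RPS27L, RPL22L1 and RPL39L, tested in the same fits, had 17 calls over the 10 lines. RPS27L is a paralogue of RPS27 and a known p53 target. It was higher in OCI-AML3, NOMO-1 and MOLM-13 and lower in HL-60 and MV-4-11. In OCI-AML3 it went from 85.9, 82.6 and 75.8 CPM to 234, 217 and 206 CPM (log2 fold change 1.43 ± 0.0773, adjusted p = 6.09e-06), the largest increase of any member with more than 1 CPM in the 10 lines. In NOMO-1 it went from 51.8, 49.1 and 51.8 CPM to 86.8, 105 and 96.1 CPM (0.92 ± 0.091, adjusted p = 7.32e-06). In MOLM-13 it went from 134, 128 and 122 CPM to 194, 186 and 197 CPM (0.58 ± 0.0665, adjusted p = 5.04e-05). In all 3 lines the groups did not overlap. In HL-60 it was lower (-0.39 ± 0.115, adjusted p = 0.0191) and in MV-4-11 also (-0.19 ± 0.0615, adjusted p = 0.0116). The other 5 lines gave -0.18 to 0.14, and OCI-AML2 gave 0.27 ± 0.0459, with separate groups but an adjusted p of 0.084.

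RPS27 was also higher in 2 of the 3 lines in which RPS27L was, MOLM-13 (0.53) and NOMO-1 (0.46), and was at -0.005 in OCI-AML3. In OCI-AML3 there were 11.1 ± 0.512 reads (n = 3) on RPS27L per 100 on RPS27 in untreated cells and 29.8 ± 2.34 after etoposide. In NOMO-1 the ratio went from 8.48 ± 0.296 to 11.6 ± 0.0591. In MOLM-13, where both genes rose, it overlapped between groups (21.6 ± 0.826 and 22.5 ± 1.14). Such ratios also depend on the lengths of the transcripts, so only their changes are compared. Of 2 other p53 targets, CDKN1A, which encodes the cell cycle inhibitor p21, was higher in all 11 lines, from 0.73 in OCI-AML2 to 5.46 in OCI-AML3. MDM2 was higher in OCI-AML3 (2.59), MOLM-13 (1.84), MV-4-11 (1.11), NOMO-1 (0.65), MONO-MAC-6 (0.61) and OCI-AML2 (0.47) and lower in NB-4 (-0.33). MV-4-11 thus had higher MDM2 and lower RPS27L, and the 3 lines with higher RPS27L all had higher MDM2. In MONO-MAC-6 and OCI-AML2 MDM2 was higher while RPS27L was not called. A relation between RPS27L and these p53 targets was not tested.

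RPL22L1 is a paralogue of RPL22, an RNA-binding 60S protein that represses it. It had the largest decrease of the 3 in F-36P, from 57.3, 59.7 and 49.4 CPM to 21.7, 19.5 and 19.7 CPM (-1.45 ± 0.129, adjusted p = 1.12e-05). It was also lower in MV-4-11 (106, 122 and 105 CPM against 74.1, 68.3 and 47.4 CPM, -0.81 ± 0.105, adjusted p = 7.99e-07), in KASUMI-1 (-0.51) and in MONO-MAC-6 (-0.40). It was higher in NOMO-1 (0.44 ± 0.0921, adjusted p = 0.00175), NB-4 (0.22) and MOLM-13 (0.19). RPL22 was lower in 2 of the 4 lines with lower RPL22L1. In F-36P it went from 175, 222 and 225 CPM to 155, 158 and 119 CPM (-0.53 ± 0.146, adjusted p = 0.00987), and in MONO-MAC-6 from 123, 134 and 139 CPM to 103, 96.5 and 107 CPM (-0.37). In MV-4-11 it was at 273 CPM in both groups, and in KASUMI-1 it was at -0.05 (adjusted p = 0.619). It passed the test in none of the 3 lines where RPL22L1 was higher.

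RPL39L, a paralogue of RPL39 known from the testis, was near 0 in F-36P, where the libraries held 0 to 0.151 CPM, and at 0 in all 6 HL-60 libraries. In the other 9 lines, each scaled on its own, it was at 11.7 to 59.1 CPM in untreated cells. It was higher after etoposide in KASUMI-1 (0.88 ± 0.152, adjusted p = 0.000751), NB-4 (0.69), NOMO-1 (0.64) and MONO-MAC-6 (0.47). In NOMO-1 it went from 51.4, 64.3 and 61.5 CPM to 86.1, 96.0 and 93.8 CPM. It was lower in MOLM-13 (-0.34 ± 0.132, adjusted p = 0.0492), the line in which most of the 77 genes were higher. RPL3L, the muscle paralogue of RPL3, passed the filter on low counts in NB-4 alone. Its 3 untreated libraries were at 0 to 0.115 CPM and its treated ones at 0.505 to 0.786 CPM (adjusted p = 0.000499), a handful of reads. In F-36P it was at 0 in the untreated libraries and at 0.353 to 0.483 CPM in the treated ones and was not tested.

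**Figure D2:**
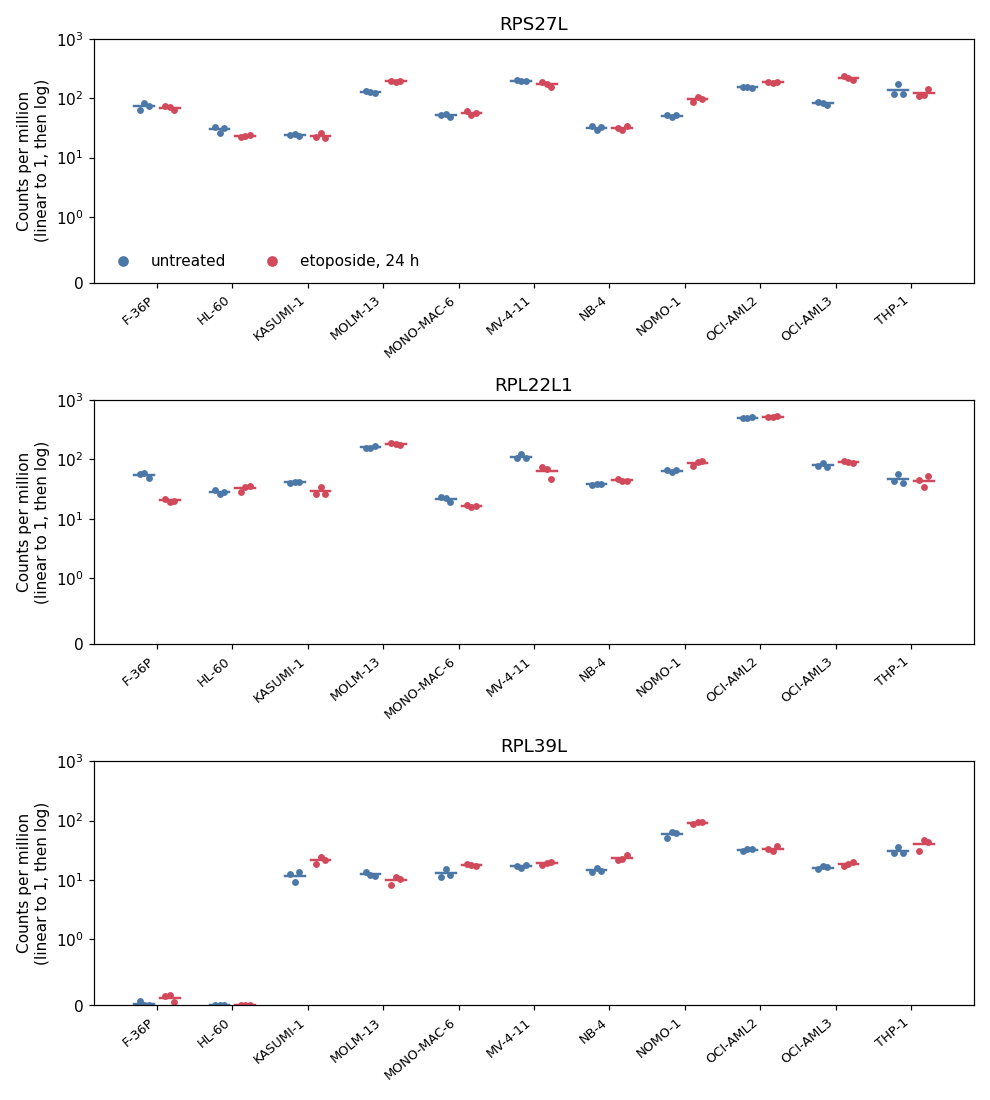
CPM of RPS27L, RPL22L1 and RPL39L in each library (points, bars for the mean of 3 libraries) by cell line, on an axis that is linear to 1 and logarithmic above. RPS27L is higher after etoposide in OCI-AML3, NOMO-1 and MOLM-13, RPL22L1 is highest in OCI-AML2, and RPL39L is at or near 0 in F-36P and HL-60.

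In untreated cells, all 77 genes differed in level between the 11 lines (edgeR, F test over 33 libraries), where 99.4% of all genes did, so that this count is not a result about these genes. The ratio of the highest to the lowest line ran from 1.84 to 5.44 over the 77 genes, with a median of 2.98. Over the 73 members with a mean of at least 100 CPM the median was also 2.98, and over all 2317 genes at this level it was 2.77. KASUMI-1 held the highest level for 53 of the 77 genes, and MONO-MAC-6 the lowest for 31, NOMO-1 for 18 and F-36P for 14. Line and culture conditions cannot be told apart in these levels. The most even genes were RPL35 (655 to 1207 CPM, ratio 1.84), RPL37A (1.86) and RPS9 (1.90).

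The most uneven genes each stood out in 1 or a few lines. RPL18 was at 2879 ± 303 CPM (SD, n = 3) in NB-4, and at 529 ± 45.3 CPM in THP-1 (adjusted p = 4.09e-23 over the lines). RPS28 was also highest in NB-4, at 1024 ± 88.9 CPM, and lowest in F-36P at 213 ± 30.0 CPM. RPL21 was at 1142 ± 64.1 CPM in MONO-MAC-6, which held the lowest level of 31 members, and at 218 ± 16.3 CPM in F-36P. RPS27 was highest in THP-1, at 1817 ± 487 CPM.

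Levels were also set relative to the family, by taking from each log2 CPM the median of the 77 genes in that line and then the gene's own median over the lines. On this scale RPL18 was at 1.88 and RPS28 at 1.45 in NB-4, RPS27 at 1.38 in THP-1, and RPL21 at 1.18 in MONO-MAC-6. At the low end RPL7 was at -1.58 in HL-60, RPL21 at -1.53 in KASUMI-1 and at -1.49 in F-36P, and RPS6 at -1.39 in F-36P. Some members that share a chromosome had similar values. The 4 members on chromosome 8 (RPL7, RPL8, RPL30 and RPS20) were at 0.61 to 0.96 in MOLM-13 and at 0.10 to 0.83 in OCI-AML3, with medians of 0.80 and 0.59, and had a median of -0.62 in NB-4. Of the 6 on chromosome 17, RPL19, RPL23, RPL23A and RPL26 were at -0.96 to -1.16 in F-36P, while RPL27 (0.35) and RPL38 (0.17) were not low. DNA copy number was not analysed here.

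RPL22 and RPL22L1 had opposite extremes in OCI-AML2. RPL22 was lowest there, at 110 ± 3.72 CPM, and highest in HL-60, at 415 ± 21.5 CPM. RPL22L1 was highest in OCI-AML2, at 497 ± 8.39 CPM, and between 20.9 ± 2.42 CPM (MONO-MAC-6) and the level of MOLM-13 in the other 10 lines. OCI-AML2 thus held 452 ± 9.57 reads on RPL22L1 per 100 on RPL22, where the next line, MOLM-13, held 65.8 ± 0.712. MONO-MAC-6, in which RPL22 was also low (132 CPM as scaled within that line), held 16.6 ± 2.84. RPL39L per 100 reads of RPL39 ran from 0 in HL-60 to 142 ± 16.3 in NOMO-1. RPS27L ran from 2.41 ± 0.271 per 100 reads of RPS27 in KASUMI-1 to 31.2 ± 1.15 in MV-4-11, and its own level from 24.3 ± 0.597 CPM in KASUMI-1 to 182 ± 5.84 CPM in MV-4-11.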

How the data were processed

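RNA from 66 libraries of 11 AML cell lines was prepared with a stranded mRNA kit. Per the labels and the study's methods, the authors checked reads with FastQC 0.11.5, aligned them with STAR 2.5.3a to GRCh38.p7 and counted reads per gene with gencode 25. The deposited values are whole-number counts per gene in column 2 of each file. That column holds STAR's unstranded counts, although the kit was stranded, so that genes on opposite strands were not kept apart. A stranded column was not compared. STAR does not count reads that align to several places or overlap 2 genes, which bears on paralogues, pseudogenes and read-through genes. The authors tested with edgeR 3.20.1.

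Names came from gencode 44, which named 56948 of 57992 identifiers, after 45 copies on the Y pseudoautosomal regions with 0 reads were left out. Each line was fitted with edgeR 4.0.16 in R 4.3.3 (low counts removed by filterByExpr, with 10 as min.count and 15 as min.total.count, TMM scaling, quasi-likelihood F test, Benjamini-Hochberg over all genes tested). CPM used TMM library sizes within a line, so that levels in comparisons between untreated lines, scaled together, differ slightly. SE is the log2 fold change over the square root of F. Lines as replicates were fitted with limma 3.58.1 on the log2 fold changes of 10 lines, and the interaction and the untreated level with edgeR F tests over 60 and 33 libraries. DESeq2 1.42.0 and edgeR's exact test were alternatives. On simulated counts for MV-4-11 the main test found 200 of 200 genes changed by a fold of 2, with 18 false calls among 13778 genes. This simulation held no smaller changes, so it does not show how well changes as small as those of most members are found. The labels do not say what a replicate number shares. Over all genes tested, every same-numbered pair of libraries deviated together (correlation above 0.1) in NB-4 alone, with a lowest correlation of 0.15. Over genes with a mean log2 CPM above 5 they did so in MOLM-13, OCI-AML2, MV-4-11 and MONO-MAC-6 as well, with a lowest correlation of 0.13. Both were computed, and all genes tested were chosen as the basis after the results of the block were known.

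Genes named in full were RPL22L1, RPL39L and RPS27L, the 5 members highest and the 5 lowest by mean log2 fold change, members past a fold of 2, named MDM2-binding, Diamond-Blackfan, leukaemia and stalk genes, the 3 most and least even in untreated cells, and FAU and RACK1. A few genes that these rules or lists hold are counted but not reported here by name. Other genes named as the ends of a range (RPL12, RPS2, RPL8, RPL9, RPL7, RPS6 and the members on chromosomes 8 and 17) were chosen after their values were seen. The members and lists were chosen with earlier results of these data known. Figures were drawn with matplotlib 3.10.9.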

Additional observations from a re-analysis of the deposited data

Results flagged for a closer look

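The response to etoposide differed between the 10 cell lines, by the interaction term in edgeR's F test over 60 libraries, for 73 of the 77 standard ribosomal protein genes, where 74.5% of all genes did. Among the genes named in the report, the adjusted p of this difference was 4.17e-15 for RPS27L, 4.19e-13 for RPL22L1 and 4.48e-05 for RPL39L, which were higher in some lines and lower in others. It was 5.99e-05 for RPS27, 9.21e-07 for RPS12, 0.000942 for RPL11, 3.03e-06 for RPL23, 8.1e-05 for RPS19, 4.52e-05 for RPS14, 1.69e-06 for RPL35A, 9.74e-07 for RPL10, 6.26e-06 for RPLP0, 0.00124 for RPL37A, 0.0057 for RPS28 and 0.0131 for RPL21. Each of these genes was called in both directions in different lines. The causes of the differences were not tested. Each line had its own dose of etoposide, and culture conditions differed between lines, so that line, dose and culture cannot be told apart.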

How the results depend on the processing

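Of 126 calls of named genes, 82 stayed on the same side of the threshold under every alternative, 44 lost it under at least 1 and none reversed. The 222 pairs lower and 78 higher became 127 and 140 with library size alone, and 3 and 0 with a fold above 2. Without MOLM-13 the pairs higher were 19. Under the other scalings, filters and tools they were 181 to 282 lower and 73 to 105 higher, and without 1 replicate 167 to 281 and 60 to 97. For the mean over lines, the 20 genes lower became 5 with library size alone (3 higher), 13 without F-36P, HL-60 or THP-1, 33 without MOLM-13 and 12 without MONO-MAC-6. With a replicate block the pairs were 232 lower and 92 higher, the paralogue calls 19 instead of 17, and the interaction 74 genes instead of 73. In lines whose numbers pair the libraries under neither gene set checked, the block gave 16 lower instead of 8 in THP-1, 2 instead of 7 in OCI-AML3 and 5 higher instead of 8 in NOMO-1. Without 1 replicate the paralogue calls were 13 to 17, the interaction 63 to 74, the untreated difference 77, and the median share 7.59% to 7.81%. By line, library size alone gave 6 lower in F-36P instead of 39, 19 lower and 15 higher in MV-4-11 instead of 43 and 1, and 1 and 43 in NB-4 instead of 11 and 9. With 1 fit of 60 libraries MV-4-11 had 14 lower, THP-1 20 instead of 8, KASUMI-1 7 instead of 4, NB-4 3 lower and 14 higher, and NOMO-1 4 higher instead of 8. Genes of at least 5 CPM gave 12 lower in F-36P, 8 higher in MV-4-11 and 17 higher in NB-4. No filter gave 63 lower in F-36P, 28 in KASUMI-1 instead of 4 and 13 in THP-1 instead of 8. The causes were not tested. With 3 libraries a group, the counts in F-36P and in the lines with few calls changed with single libraries. The counts of lower members in MONO-MAC-6 and MV-4-11, and of higher members in MOLM-13, changed less. Paralogues at or near 0 reads (RPL39L in F-36P and HL-60, RPL3L) cannot be read.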
